A study of Mus musculus with 9 samples.

Results

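The genes described here make, bind, sense and clear retinoic acid: Aldh1a1, Aldh1a2, Crabp1, Crabp2, Rara, Rarb, Rarg, Rxra and Cyp26b1. Every non-control probe whose gene name in the scanner files was one of these 9 symbols (of 30766 gene names on the array) was taken, whatever its values. This gave 13 of 55681 probes. The genes themselves were chosen with earlier results of these data known. Rara and Rxra have 2 probes each and Rarb has 3, so the probes are not independent of each other. A probe passed the filter on dim probes where 3 or more of the 9 arrays were well above background, and all 13 passed, as did 42983 probes in all. On all 9 arrays, 12 of the 13 were well above background.

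Retinoic acid is a small lipid hormone made from vitamin A. Retinol is oxidised to retinal, and retinaldehyde dehydrogenases oxidise retinal to retinoic acid. Binding proteins carry the acid in the cytoplasm, to the nucleus or to the enzymes of the CYP26 family that break it down. In the nucleus, a retinoic acid receptor pairs with a retinoid X receptor on DNA and recruits corepressors without ligand and coactivators with it. In muscle, retinoic acid is known as a signal that acts on the growth and differentiation of myogenic cells.

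Retinoic acid receptors bind direct repeats of a half-site of 6 bases, and the repeat with a gap of 5 bases, called DR5, in the Rarb promoter is the textbook response element. The RefSeq promoter table (GRCm38.p6) held 14 windows of 8 of the 9 genes. It had none for Crabp2, whose promoter was thus not searched. Both strands of the windows were searched for DR1, DR2 and DR5 repeats of the half-site (A or G, then G, G or T, then TCA). DR5 was found in 1 of the 14 windows, that of Rarb, and in 32 of all 32851 windows (0.0974%). Neither DR1 nor DR2 was in a window of these 8 genes, with 0.222% and 0.268% of all windows holding them. The 250 bases before the Rarb start are shown because they carry the repeat, in capitals, which lies 53 to 37 bases before the start, on the minus strand of chr14:16575477-16575726 (GRCm38.p6).
Rarb upstream: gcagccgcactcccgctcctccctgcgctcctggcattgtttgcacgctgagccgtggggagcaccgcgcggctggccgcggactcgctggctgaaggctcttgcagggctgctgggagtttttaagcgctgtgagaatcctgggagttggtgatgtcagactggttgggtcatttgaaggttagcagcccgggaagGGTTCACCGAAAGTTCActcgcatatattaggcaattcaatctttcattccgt
A match of letters is a description of the sequence and does not show that a receptor was bound in these cells.

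Several of these genes were read by probes at different places of their transcripts, and the probes of a gene did not always move alike. The last 30 bases of the 60-base probes that the results turn on are shown so that they can be told apart. Capitals mark AATAAA, the signal for cutting and polyadenylating a messenger RNA.
Crabp2, base 812 of its mRNA: gtagtctgtgtgatttagaatatttattgg
Rara, base 2477: atattaattctcgttggttttgtttttatt
Rara, base 3324: agaaagAATAAAgttctatttattctataa
Rarb, base 1420: agttcaagtgggaatatagcagagcacagt
Rarb, base 2701: ttccatggagtctcctggcaaagAATAAAt
Rarb beta 1 isoform, base 36: ttctgtgtgattctggacctgtagtaatgt
Rxra, base 1743: ctctcgccatctttactcatgcttgccttt
Rxra, base 5208: ccatcttgtgataaatgccctttgtctccg
The signal was in the last 30 bases of 3 of the 13 probes (Rara at base 3324, Rarb at base 2701 and Rarg) and of 8.16% of all 55681 probes. In the array design (mm9), the Crabp2 probe lies at chr3:87757207-87757266 and the Rara probes at chr11:98835350-98835409 (base 2477) and chr11:98836197-98836256 (base 3324). The Rarb probes lie at chr14:17264648-17264707 (base 1420), chr14:17263367-17263426 (base 2701) and chr14:17651424-17651483 (beta 1 isoform). Those of Rxra lie at chr2:27615316-27615375 (base 1743) and chr2:27618781-27618839 (base 5208). The exon or untranslated region that each probe reads was not determined here.

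RNA came from satellite cells, which are muscle stem cells, of male FVB mice 2 months old. The sort kept cells with integrin alpha-7 and CD34 on their surface and removed those with CD31, CD45, CD11b or Sca1, and the RNA was amplified before labelling with Cy3. The WT group came from wild type mice and the KO group from mice deficient in Bmi1, a subunit of a Polycomb complex that keeps developmental genes silent, and the labels give no tissue-specific driver for the deficiency. The 9 arrays of 1 colour comprised 3 of WT and 6 of KO, and KO arrays that share a number in their descriptions were averaged, which left 3 samples a group. The titles, by contrast, number the KO arrays as 6 biological replicates. No label ties a sample to an animal of its own, so a p-value here reflects the spread among these samples alone, part of which may be technical.

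Between 71.9% and 75.8% of non-control spots were well above background on each array and 0 were saturated. The arrays of each averaged pair correlated at 0.994 to 0.996 over the kept probes, as compared to 0.962 to 0.979 for the other 33 pairs of arrays. The genotype field of KO replicate 1 reads wild type, while its title, source and description say KO, by which it was grouped. Both Bmi1 probes were well above background on all 9 arrays and differed by 0.10 and 0.21 (log2, KO minus WT), and they do not check the labels, because which part was deleted is not given. All 12 satellite cell markers listed, Pax7 and Itga7 among them, were well above background on all 9 arrays. The arrays lay on 2 slides, slide 1 with 2 WT and 3 KO arrays and slide 2 with 1 WT array, that of WT sample 2, and 3 KO arrays.

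Crabp2 had the largest difference of the 13 probes: all 3 KO samples lay above all 3 WT samples, by 2.15-fold on average. None of the 13 probes passed an adjusted p of 0.05 in the limma test with Benjamini-Hochberg adjustment over all 42983 probes, of which 21 passed (0.0489%). At an unadjusted p of 0.05, 3 of the 13 passed (Crabp2, Rara at base 3324 and the Rarb beta 1 isoform), against 10.7% of all tested probes. The same 3 probes had groups that did not overlap, and in all 3 KO was higher. Among all tested probes the groups did not overlap in 16.5%, and KO lay above WT in 8.58%. The median difference over all tested probes was -0.01 (log2), so values near 0 are close to the typical probe.

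**Figure D1:**
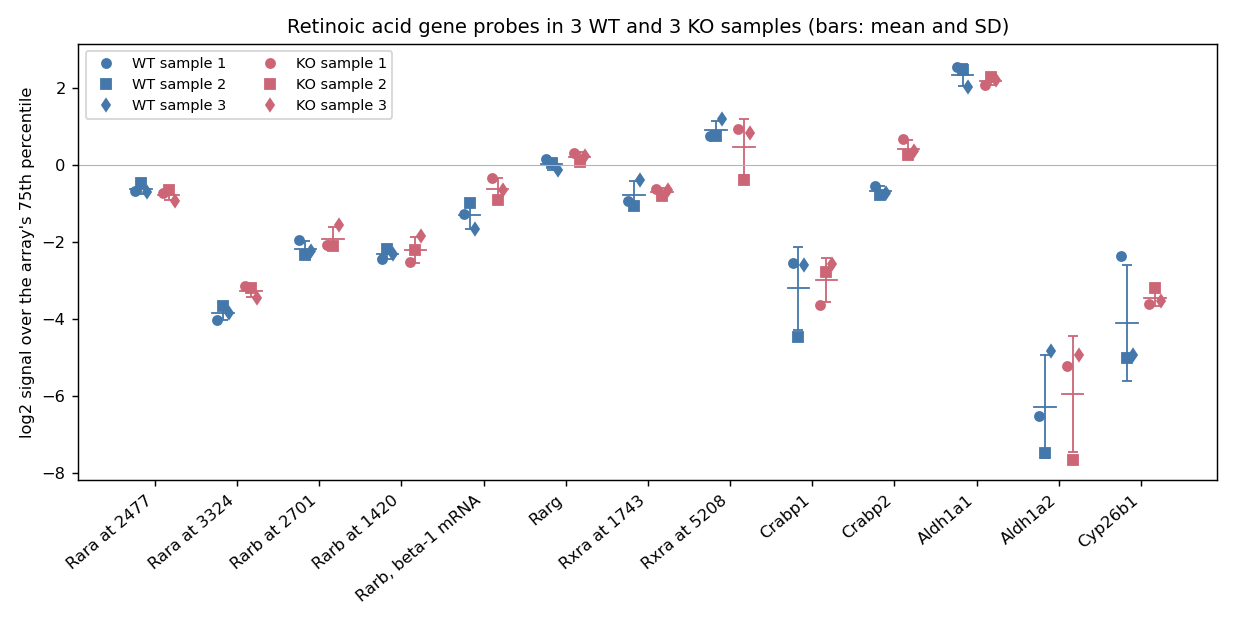
Log2 signal over the 75th percentile of the array (vertical axis) for the 13 probes, with 3 WT samples in blue, 3 KO samples in red, and bars for the mean and SD. Crabp2 is higher in all 3 KO samples, while Crabp1, Aldh1a2 and Cyp26b1 vary among the samples of a group.

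Retinaldehyde dehydrogenases make retinoic acid. Values are log2 processed signals relative to the 75th percentile of the array, given for samples 1, 2 and 3 of each group. Aldh1a1 (chr19:20717764-20717823, mm9), a cytosolic dehydrogenase widely used as a marker of stem and progenitor cells, read 2.55, 2.46 and 2.01 in WT and 2.07, 2.29 and 2.20 in KO. The groups overlapped, with a mean of 2.34 ± 0.28 for WT and 2.19 ± 0.11 for KO (SD, n = 3 each). The difference of -0.15 ± 0.18 (SE) had a limma adjusted p of 0.845 and a 95% interval of -0.60 to 0.29.

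Aldh1a2 (chr9:71143931-71143990), the main enzyme of retinoic acid synthesis in the embryo, was at the edge of detection. Its probe was well above background on 1 of 3 WT and 4 of 6 KO arrays. It read -6.53, -7.49 and -4.85 in WT and -5.23, -7.67 and -4.94 in KO. The dim samples were WT samples 1 and 2 and KO sample 2, so dim and brighter samples occurred in both groups. The difference of 0.34 ± 0.95 (SE) had an adjusted p of 0.947 in the limma fit, and with a 95% interval of -2.00 to 2.67 a change in either direction was not detectable.

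Cellular retinoic acid binding proteins carry the acid in the cytoplasm, and Crabp2 is known to deliver it to the receptors. The Crabp2 probe read -0.55, -0.78 and -0.73 in WT and 0.67, 0.25 and 0.35 in KO. Every KO sample lay above every WT sample, and the means were -0.68 ± 0.12 and 0.42 ± 0.22 (SD, n = 3 each). On the scanner's linear scale, before scaling, the processed signals of the single arrays were 808, 798 and 634 in WT. In KO replicates 1 to 6 they were 1950, 1547, 1433, 1816, 1595 and 1586. The lowest KO array was thus above the highest WT array, and the 2 arrays of a KO sample differed by at most 0.09 (log2).

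The difference in Crabp2 was 1.11 ± 0.16 (SE), with a 95% interval of 0.71 to 1.50, and its size was above that of 95.1% of the tested probes. Its limma adjusted p was 0.106 with 3 samples against 3, and 0.029 with normexp background correction. In the authors' deposited values, fitted in the same way, it was 0.040. The difference was 1.06 within slide 1, 1.20 within slide 2 and 1.11 without the array KO replicate 1. It lay between 0.98 and 1.20 over all 20 alternative settings, with adjusted p from 0.004 to 0.266.

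Crabp1 (chr9:54616192-54616251), which is known to hold retinoic acid in the cytoplasm and pass it to its breakdown, showed no such separation. It read -2.56, -4.46 and -2.61 in WT and -3.63, -2.77 and -2.57 in KO. WT sample 2 and KO sample 1 were dim, and the other 4 samples were alike. The difference of 0.22 ± 0.59 (SE) had a limma adjusted p of 0.944. It was 1.45 within slide 2, where WT sample 2 is the one WT array, and -0.38 within slide 1.

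**Figure D2:**
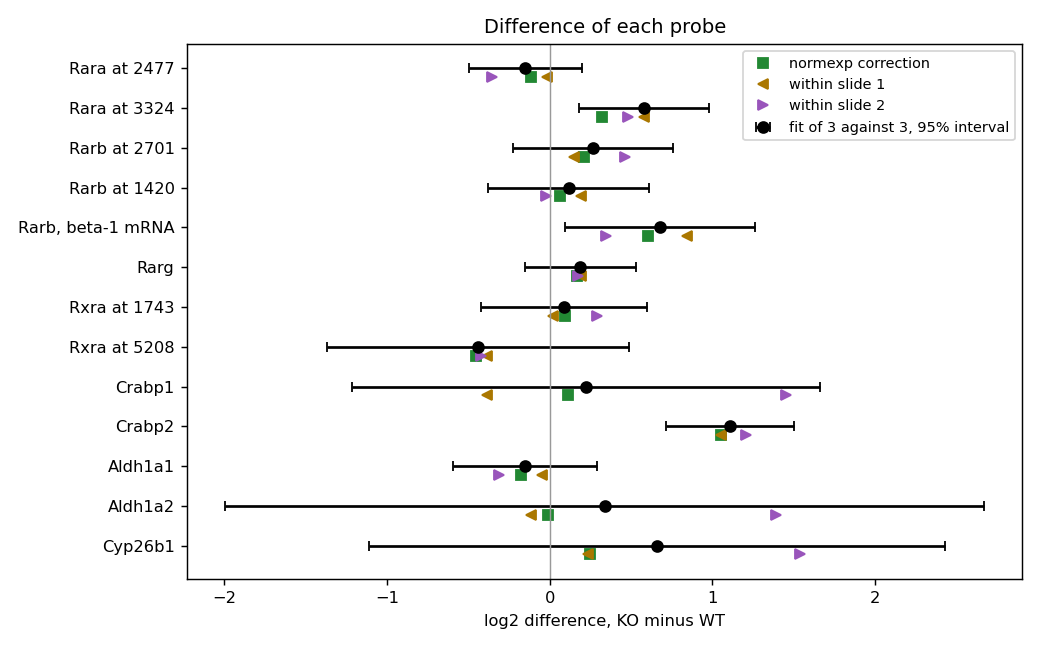
Log2 difference KO minus WT (horizontal axis) of each probe from the fit of 3 against 3 samples (black, 95% interval), with normexp correction (green) and within each slide (triangles). The 4 values of Crabp2 lie between 1.05 and 1.20, while those of Crabp1 and Aldh1a2 lie on both sides of 0.

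Retinoic acid receptors are nuclear receptors that bind the acid and regulate transcription, and Rara, the alpha receptor, is present in most tissues. The probe at base 2477 read -0.67, -0.48 and -0.72 in WT and -0.73, -0.66 and -0.93 in KO. The groups overlapped, with a difference of -0.15 ± 0.14 (SE) and a limma adjusted p of 0.789. The probe at base 3324 read -4.04, -3.67 and -3.84 in WT and -3.15, -3.20 and -3.47 in KO. Here all KO samples were above all WT samples, with a difference of 0.58 ± 0.16 (SE), 1.49-fold, and an adjusted p of 0.293 in the limma fit. The arrays of KO sample 3 differed by 0.49, and single arrays overlapped between the groups (lowest in KO -3.72, highest in WT -3.67), so the separation holds for averaged samples only.

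The estimates of the Rara probes thus had opposite signs, but at base 2477 the 95% interval of -0.50 to 0.20 spanned both signs. In each sample, the signal at base 2477 minus that at base 3324 was 3.37, 3.18 and 3.12 in WT and 2.42, 2.54 and 2.54 in KO. The groups did not overlap, and the contrast differed by -0.73 (KO minus WT). An exact two-sided permutation test gave p = 0.1, the smallest p that 3 samples against 3 allow, and 0.25 after adjustment over the 5 pairs of probes compared. The signal at base 3324 was low, between 71.6 and 152.6 on single arrays before scaling, and its difference was 0.32 with normexp correction and 0.31 in the authors' deposited values. The part that the handling of dim signal has in this contrast was not tested.

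Rarb, the beta receptor, is itself known as a target of retinoic acid through a DR5 repeat. Which Rarb transcript starts at the window shown above was not determined here, so the repeat is not tied to the beta 1 probe. The probe of the beta 1 isoform, near the 5′ end of that mRNA, read -1.29, -0.98 and -1.68 in WT and -0.34, -0.92 and -0.65 in KO. All KO samples were above all WT samples, but KO sample 2 and WT sample 2 lay close together. The difference was 0.68 ± 0.24 (SE), 1.60-fold, with a limma adjusted p of 0.397. It was 0.84 within slide 1 and 0.35 within slide 2. The 2 arrays of each KO sample differed by at most 0.07 at this probe.

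The other Rarb probes lie at bases 1420 and 2701 of the gene's RefSeq mRNA. At base 2701 the values were -1.96, -2.33 and -2.25 in WT and -2.08, -2.10 and -1.57 in KO, and the difference was 0.27 ± 0.20 (SE, limma adjusted p = 0.723). At base 1420 they were -2.43, -2.19 and -2.33 in WT and -2.53, -2.22 and -1.85 in KO, with a difference of 0.12 ± 0.20 (SE, limma adjusted p = 0.902). KO sample 3 was the highest of the 6 samples at both probes, and the groups overlapped. Without it the differences were 0.09 at base 2701 and -0.06 at base 1420. The difference at the beta 1 probe exceeded that at base 2701 by 0.41 (exact permutation p = 0.3, adjusted over 5 pairs 0.375) and that at base 1420 by 0.56 (exact permutation p = 0.2, adjusted 0.333). The probes at bases 1420 and 2701 differed from each other by -0.15 (exact permutation p = 0.5, adjusted 0.5). With 3 samples against 3, this test cannot go below 0.1.

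Rarg (chr15:102065371-102065430), the gamma receptor, known from skin and cartilage, read 0.14, 0.05 and -0.14 in WT and 0.31, 0.08 and 0.22 in KO. The groups overlapped, with a difference of 0.19 ± 0.14 (SE), a limma adjusted p of 0.719 and a 95% interval of -0.15 to 0.53. The size of a change at this probe was thus bounded more tightly than at Cyp26b1 or Aldh1a2.

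Rxra, the alpha retinoid X receptor, is the common partner of the retinoic acid receptors and of several other nuclear receptors. At base 1743 its probe read -0.93, -1.06 and -0.38 in WT and -0.63, -0.82 and -0.66 in KO, a difference of 0.09 ± 0.21 (SE, limma adjusted p = 0.934). At base 5208 it read 0.75, 0.75 and 1.18 in WT and 0.93, -0.39 and 0.82 in KO, a difference of -0.44 ± 0.38 (SE, limma adjusted p = 0.766). KO sample 2 alone was low at base 5208, on both of its arrays (processed signals 1146 and 891, as compared to 1981 to 2379 on the other 7 arrays). Without it the difference was -0.02. At base 1743 the same sample was not apart from the others. The contrast of the probes, base 1743 minus base 5208, differed by 0.53 (exact permutation p = 0.1, adjusted over 5 pairs 0.25), and it too rests mainly on KO sample 2, at -0.44 as compared to -1.56 and -1.47 in the other KO samples and -1.68, -1.81 and -1.56 in WT.

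Cyp26b1 (chr6:84521952-84522011) encodes an enzyme that breaks retinoic acid down. It read -2.38, -5.02 and -4.93 in WT and -3.62, -3.20 and -3.53 in KO. WT sample 1 was the highest and the other WT samples the lowest of all 6, with the KO samples in between, so the groups overlapped. The SD was 1.50 in WT and 0.22 in KO, and the difference of 0.66 ± 0.72 (SE) had a limma adjusted p of 0.826. Without WT sample 1 it was 1.52, and without WT samples 2 and 3, 1 at a time, it was 0.20 and 0.25.

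Aldh1a2 and Rarb at base 1420 differed in sign between the slides, at -0.12 and 1.39 for Aldh1a2 and 0.19 and -0.02 for Rarb, within slide 1 and slide 2 in turn. Given in the same order, Cyp26b1 differed by 0.24 and 1.54, Aldh1a1 by -0.05 and -0.31 and Rara at base 2477 by -0.02 and -0.36. Rarb at base 2701 differed by 0.15 and 0.46, and Rxra at base 1743 by 0.02 and 0.29. Rarg, at 0.19 and 0.17, Rxra at base 5208, at -0.38 and -0.42, and Rara at base 3324, at 0.58 and 0.48, varied less between the slides. With 1 WT array, the values of slide 2 have no test.

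The rest of the retinoid pathway was described through 6 lists of 90 other genes, each read by its brightest kept probe. The filter left 77 genes to test and removed 13. Of the 77, 43 were higher and 34 lower in KO, with a median of 0.04. Among all genes with a name 47.5% were higher, with a median of -0.02. Of the 77, 0 had a limma adjusted p under 0.05. At an unadjusted p of 0.05, 19 passed (14 higher, 5 lower), against 10.7% of all genes with a name. The groups did not overlap in 21 of the 77 (27.3%), against 17.2% of all genes. These counts include Ttr, which passed the filter through KO alone. Without it 42 of 76 were higher, 20 did not overlap and 18 passed an unadjusted p of 0.05 in the limma fit. With normexp correction 3 genes passed the adjusted threshold, Adh1, Dhrs3 and Nr2f1, all higher in KO, and with the authors' deposited values 1 did, Adh1.

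Of 8 genes of retinol uptake, binding and storage detected in both groups, 6 were higher in KO, with a median of 0.19. The groups did not overlap in 1 (12.5%, against 17.2% of all genes), Stra6, the receptor of retinol binding protein. Ttr, the plasma carrier of that protein, passed the filter through KO alone, where 6 of 6 arrays were well above background, as compared to 0 of 3 in WT, so it had to differ and is not counted. Its level in KO was at least 2.82-fold higher. This bound sets the KO mean against the lowest signal well above background, or the probe's own if higher, on each WT array. Stra6 read -5.30, -4.15 and -4.84 in WT and -2.80, -3.71 and -2.91 in KO, a dim signal, and differed by 1.62 ± 0.38 (SE, limma adjusted p = 0.219).

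Enzymes of retinol and retinal conversion, a list that also holds Aldh1a3, Aldh8a1 and Retsat, were split, with 9 of 17 higher, 8 lower and a median of 0.04. Their groups did not overlap in 5 (29.4%, against 17.2% of all genes). Adh1, an alcohol dehydrogenase that oxidises retinol, read -0.94, -1.28 and -1.17 in WT and 1.05, 0.18 and 0.56 in KO. It differed by 1.73 ± 0.25 (SE), 3.31-fold, with a limma adjusted p of 0.0999. Dhrs3, which reduces retinal back to retinol and is a known target of retinoic acid, read -0.82, -0.38 and -0.71 in WT and 0.15, 0.36 and 0.41 in KO. All KO samples were above all WT samples at both genes, and the Dhrs3 difference was 0.94 ± 0.17 (SE, limma adjusted p = 0.141).

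Rdh10, which oxidises retinol in the embryo, was 0.57 ± 0.21 (SE) higher, and Rdh11, a retinal reductase, differed by -0.67 ± 0.14 (SE), with limma adjusted p of 0.425 and 0.192. Adh4 differed by -0.70 ± 0.28 (SE, limma adjusted p = 0.452). Aldh1a3, the third retinaldehyde dehydrogenase, differed by 1.61 ± 0.67 (SE) with overlapping groups and a limma adjusted p of 0.478. Of the other clearance and delivery genes, 1 of 2 tested was higher, with Fabp5 at 0.32 and Cyp26c1 at -0.27.

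Among the other nuclear receptors and partners of RXR, 10 of 17 were higher and the median was 0.06. Their groups did not overlap in 2 (11.8%, against 17.2% of all genes). Nr4a2, an early response receptor, read 1.33, 1.26 and 0.20 in WT and 2.63, 2.52 and 2.51 in KO, a difference of 1.62 ± 0.32 (SE, limma adjusted p = 0.167), and its second probe differed by 1.58. Ppard differed by 0.27 and Nr1i3 by -1.17, the latter with overlapping groups. Rxrb and Rxrg, the other RXR genes, differed by -0.07 and 0.17, both with overlapping groups. Coactivators and corepressors were lower in 10 of 14, with a median of -0.05. Their groups did not overlap in 3 (21.4%, against 17.2% of all genes), Nrip1 (-0.35), Ncor1 (-0.31) and Ncoa2 (-0.13). The limma adjusted p of these 3 were 0.451, 0.524 and 0.785. Other probes differed by -0.004 for Nrip1 and by -0.004 and 0.043 for Ncor1.

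Known targets of retinoic acid held the largest share of separated groups among the 6 lists, 9 of 18 genes tested (50%, against 17.2% of all genes). Of the 9, 8 were higher in KO, and the median over the list was 0.23. Nr2f1, an orphan receptor, read -2.70, -3.23 and -2.86 in WT and -1.45, -1.74 and -1.80 in KO, and differed by 1.27 ± 0.19 (SE, limma adjusted p = 0.108), with its second probe at 1.53. Rarres2, which encodes the adipokine chemerin, read 2.67, 2.79 and 2.47 in WT and 3.63, 3.69 and 3.34 in KO, a difference of 0.91 ± 0.16 (SE, limma adjusted p = 0.141). Both genes were higher in every KO sample than in any WT sample.

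The other separated targets were Tgm2, a transglutaminase (1.32, second probe 1.15), Meis2, a homeobox cofactor (1.18), Nr2f2 (0.89), Rarres1 (0.87), Cdkn1a, a cell cycle inhibitor (0.70), and Rai14 (0.59). Their limma adjusted p lay between 0.214 and 0.392. For Cdkn1a, the other kept probes differed by 1.02 and 2.15. Hoxa4 was the one lower, at -0.84 ± 0.24 (SE, limma adjusted p = 0.295). The gene Cyp26a1, whose RefSeq window also holds a DR5 repeat, did not pass the filter on dim probes.

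**Figure D3:**
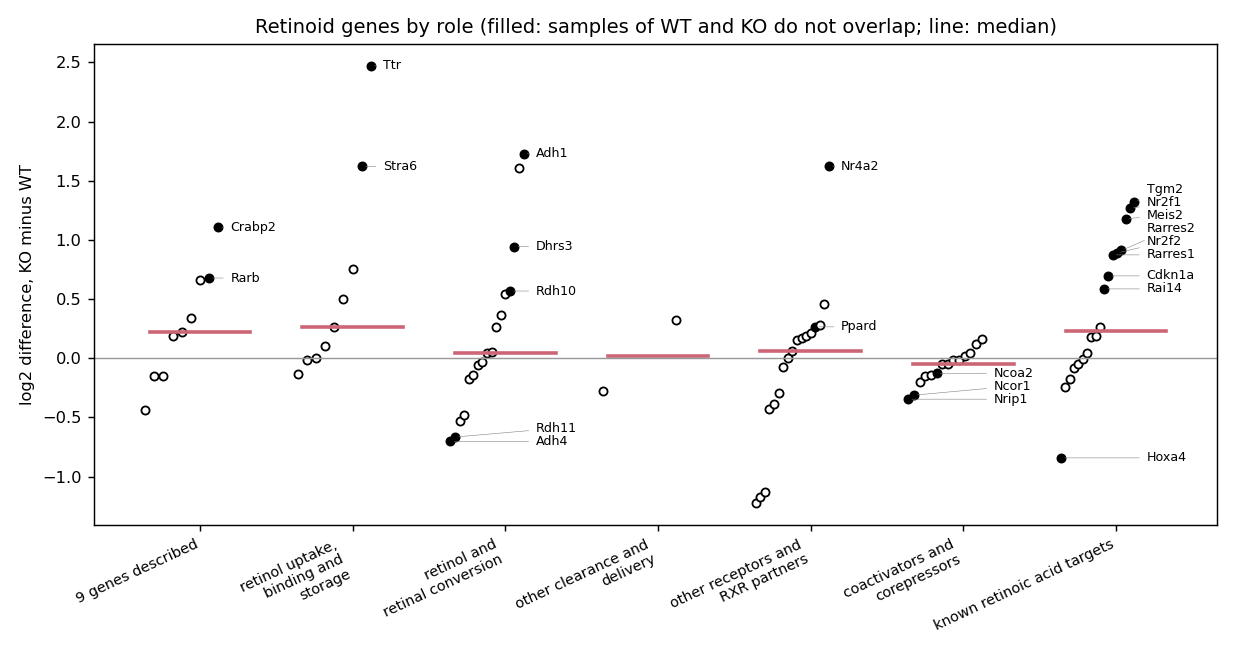
Log2 difference KO minus WT (vertical axis) of the 9 genes and of 6 lists of other retinoid genes, 1 point per gene by its brightest kept probe, filled where the samples of the groups do not overlap, with a line at each median (0.27 for the uptake list, with Ttr). The known targets hold 9 filled points of 18, and the 2 filled points of the 9 genes are Crabp2 and Rarb.

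Fibroblast, mural and glial markers were, as lists, higher in every KO sample than in any WT sample, by summed level and median over genes. Crabp2 was higher in every KO sample too, and the part of these lists in the differences was not tested. More cells of a type and more RNA per cell cannot be told apart in sorted bulk RNA. Of 11 fibroblast and mesenchymal progenitor markers detected in both groups, 9 were higher in KO, with a median of 0.87 and 5 whose groups did not overlap (45.5%, against 17.2% of all genes). Pdgfra, well above background on 0 of 3 WT and 6 of 6 KO arrays, passed the filter through KO alone and was at least 4.23-fold higher there. The summed level of all 12 was 6.90 to 7.06 (log2) in WT and 7.39 to 7.55 in KO. All 10 endothelial markers (median 0.96, summed level 2.24 to 3.11 in WT and 2.88 to 4.37 in KO), all 8 mural markers (0.65, 5.68 to 5.85 and 5.94 to 6.03) and all 5 glial markers tested (1.15, 4.10 to 4.37 and 4.76 to 4.97) were higher. Of 5 tendon markers 4 were higher (median 1.34, summed level 2.43 to 2.66 and 3.02 to 3.67). The tendon list was apart by summed level but overlapped by median over genes (0.08 in KO sample 1, 0.30 in WT sample 2). Gene by gene, the groups did not overlap in 3 endothelial (30%), 3 mural (37.5%), 4 glial (80%) and 1 tendon marker (20%). The endothelial level of KO sample 2 (2.88) lay below that of WT sample 2 (3.11), so this list overlapped between the groups.

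Satellite cell markers (8 of 12 higher, median 0.09, summed level 6.85 to 7.05 in WT and 6.93 to 6.95 in KO), myeloid markers (2 of 6, median -0.04, 6.95 to 7.16 and 6.91 to 7.06) and muscle fibre markers (2 of 4, median -0.08, 2.04 to 3.08 and 2.37 to 3.86) overlapped between the groups in their summed level. Gene by gene, the groups did not overlap in 4 of 12 satellite cell markers (33.3%, 2 higher and 2 lower). They did not in 2 of 6 myeloid markers (33.3%, 1 higher and 1 lower) and 0 of 4 muscle fibre markers, against 17.2% of all genes. Of 62 markers tested, 0 passed an adjusted p of 0.05 in the limma fit and 20, Pdgfra among them, an unadjusted p of 0.05 (32.3%, against 10.7% of all genes). Without Pdgfra, which passed the filter through KO alone, 19 of 61 passed the unadjusted p. Pecam1 was well above background on 8 of 9 arrays, and Pax7 and Myf5 on 9.

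**Figure D4:**
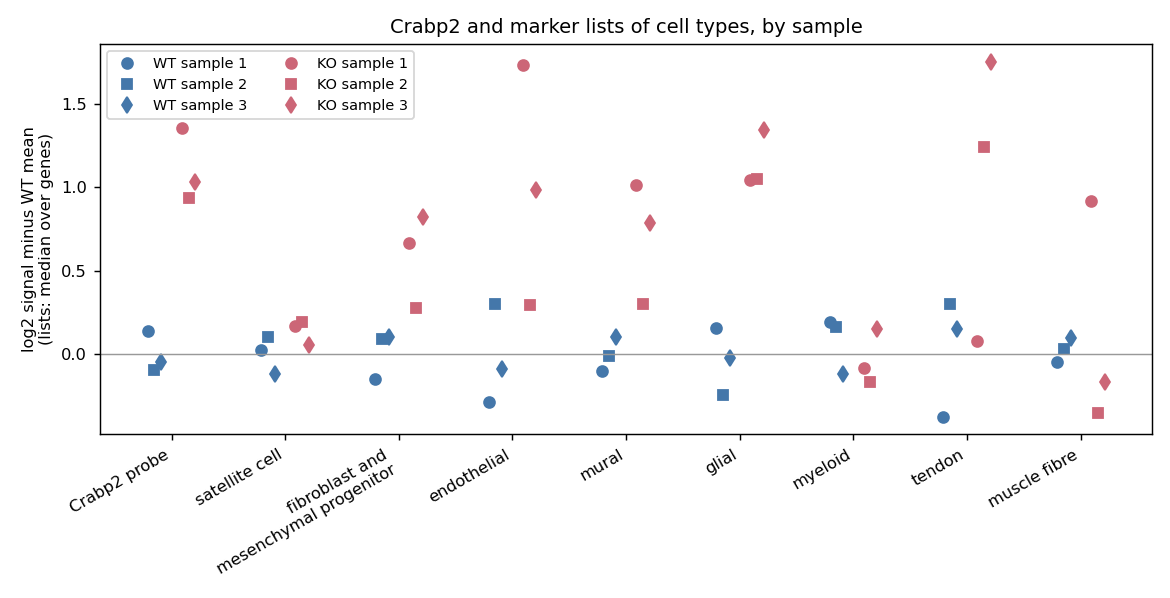
Log2 signal minus the WT mean (vertical axis) of the Crabp2 probe and, as the median over genes, of 8 lists of cell type markers, for 3 WT samples (blue) and 3 KO samples (red). The fibroblast, mural and glial lists and Crabp2 are higher in every KO sample than in any WT sample. The satellite cell, endothelial, myeloid, tendon and muscle fibre lists overlap.

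Probes that most resembled Crabp2 over the 6 samples, among 21031 probes that carry a gene symbol other than these 9 and were well above background on all 9 arrays, belonged to C130074G19Rik, Adh1, Cpt1b, Cfb and Npnt. Their Pearson r lay between 0.994 and 0.997. These r describe 6 samples in 2 groups, so a gene that differs between the groups and has the same order within KO reaches a high value. Like Crabp2, all 5 were highest in KO sample 1. They differed by 0.89, 1.73, 0.47, 1.78 and 1.20 between KO and WT, in the order named. Cpt1b is the muscle enzyme that brings fatty acids into mitochondria, Cfb a complement factor and Npnt a matrix protein.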

How the data were processed

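Per the file headers, the authors deposited the output of Agilent Feature Extraction 10.7.3.1 for each of 9 arrays, in which spot intensity is linear and background-subtracted, with small positive surrogates for dim spots. They also deposited a table of log2 values, with no stated method. Each of its 9 columns correlated best with its own array after normexp correction (offset 50) and quantile normalization, and all shared a median of 7.806. Here processed signals were put on a log2 scale and centred on each array's 75th percentile. Outlier spots (93 to 148 per array) were dropped, repeat spots averaged and 35 empty probe values filled from other arrays. The filter asked for a signal well above background on 3 or more of 9 arrays. Since 6 of 9 arrays are KO, a gene seen in KO alone passes more easily. WT and KO were compared per probe with limma 3.58.1 (lmFit, eBayes) in R 4.3.3, 3 samples against 3 with 4 residual degrees of freedom, with Benjamini-Hochberg adjustment at 0.05. Probe contrasts used exact two-sided permutation tests in Python 3.11.15 (scipy 1.17.1). The fit was tested on simulated data. All members were named, with up to 6 genes per list by smallest unadjusted p. Aldh1a3, Rxrb, Rxrg, Hoxa4, Cdkn1a, Rai14, Cyp26a1, Bmi1 and single markers were named outside that rule, after their values were seen. The members and lists were chosen with earlier results of these data known. Probe coordinates are those of the array design (mm9), promoter windows those of RefSeq (GRCm38.p6). No source used here gives the strand that labelling kept.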

Additional observations from a re-analysis of the deposited data

How the results depend on the processing

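Of the 13 probes, only Crabp2 passed an adjusted p of 0.05 under any alternative. The count of these probes passing was 1 with normexp correction, the authors' table, 9 separate arrays, the sample as a random block, and that block with slide. All probes passing then numbered 282, 208, 1639, 610 and 364, as compared to 21, and 62 with probes well above background on all 9 arrays, 39 with 1 probe per gene, 1 with slide as a block and 0 within slide 1. The titles call the KO arrays 6 biological replicates, but those sharing a number differ little, and if each pair is 1 sample the p from 9 separate arrays is too small. Groups did not overlap in 10 of 13 probes within slide 2, with 1 WT array, where 48.6% of all probes did so. Leaving out 1 sample left 0 of the 13 probes called, with 0 to 3 called among all probes. Of the 13, 3 to 6 did not overlap, against 24.5% to 30.8% of all probes. Signs reversed for Aldh1a2 with normexp (-0.010) and within slide 1 (-0.12), for Crabp1 within slide 1 (-0.38) and for Rarb at base 1420 within slide 2 (-0.020). With 1 sample left out, Aldh1a2 ranged from -0.26 to 1.20, Crabp1 from -0.41 to 0.54, Rarb at base 1420 from -0.056 to 0.28 and Rxra at base 1743 from -0.046 to 0.29. The cause was not tested. Same-numbered WT and KO samples were not paired (correlations of deviations -0.03, 0.02 and 0.02), and a replicate block left 0 probes called and Crabp2 at an adjusted p of 0.246 (limma). For the 77 other genes the same settings were added after seeing the data, and 0 to 12 passed. Aldh1a2, well above background on 5 of 9 arrays, is limited by its low signal.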
